A study of Mus musculus with 4 samples.

Results

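The genes described here belong to enzyme families that write and erase methyl groups on histone lysines, or encode subunits that their complexes share. They were chosen by name: the Kdm2 to Kdm8, Kmt2, Kmt5, Setd, Suv39h, Prdm, Nsd1 to Nsd3 and Smyd2 to Smyd5 genes, and Ezh1, Ezh2, Eed, Suz12, Ehmt1, Ehmt2, Dot1l, Ash1l, Ash2l, Wdr5 and Phf8. The rule matched 61 of 18193 genes with a probe set of a single gene symbol, and Suv39h1 and Ash1l are not analysed here. Kdm1a, the gene targeted in the study, is not among them. A name alone does not show that a member acts on a histone lysine.

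Expression was measured on 4 Affymetrix 3' arrays of C2C12 cells, an immortalised mouse myoblast line that fuses into myotubes when serum is lowered. All cells carried a plasmid selected with hygromycin, which encoded a non-targeting control (shControl, 2 arrays) or short hairpin RNA against LSD1 (shLSD1, 2 arrays), and RNA was taken 48 hours after the change from growth medium with 10% fetal bovine serum to medium with 2% horse serum, both with 25 mM glucose; hygromycin was used at 750 µg/mL. How many hairpin sequences or stable selections were made per group is not stated, and if each group was 1 selection, effects of the selection and of the knockdown cannot be told apart. Whether a group's arrays hold separately grown cultures is not stated, and the p-values reflect variation among arrays that may be purely technical. Array values below are MAS5 signals on a linear scale with replicate 1 before replicate 2, and each log2 fold change, shLSD1 minus shControl, is followed by ± its standard error from limma (n = 2 arrays per group).

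Histone methylation is set by opposing enzymes. Most methyltransferases carry a SET domain, and the demethylases in this gene set carry a JmjC domain that uses iron and alpha-ketoglutarate, whereas LSD1 is a flavin enzyme that acts on lower methylation states. In muscle cells the polycomb enzyme Ezh2 is known to keep muscle genes silent in myoblasts, the H3K9 enzymes Ehmt2 and Suv39h1 to restrain MyoD, and the demethylase Kdm6a to clear H3K27 methylation from muscle genes. The comparison asks whether transcripts of the other writers and erasers differ when LSD1 is depleted.

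Most of these genes differed little between the groups. Of the 61 genes, 54 lay above the signal filter (a mean log2 signal of 6.03, the median of all probe sets), and no gene had 1 group above that level and the other below it. In the fit over all 10874 genes tested, 4 of the 54 fell (7.41%, against 7.09% of all genes tested) and 0 rose (against 8.75% of all genes tested), by limma with Benjamini-Hochberg adjustment at 0.05. In either direction that is 4 of 54, where 15.8% of all genes tested were called. Those that fell were Setd3, Kdm3b, Smyd3 and Kdm5a. The counts at an unadjusted limma p under 0.05 were 10 lower and 1 higher, which is 18.5% and 1.85% of the 54 genes, or 11 in all, beside 31% of all genes tested in either direction, 14.3% lower and 16.6% higher. The share that fell was thus near the share among all genes tested. All 4 calls were lost when shControl replicate 1 was left out (limma adjusted p from 0.0975 to 0.195) and when shControl replicate 2 was left out (from 0.161 to 0.212). The Smyd3 call was also lost without shLSD1 replicate 1 (limma adjusted p = 0.0885) and the Kdm5a call without shLSD1 replicate 2 (limma adjusted p = 0.0646), while the direction of these genes was the same in each of those fits. None of the 4 passed without the intensity trend in limma's variance prior (limma adjusted p from 0.0877 to 0.0940). They also did not pass when all probe sets of a gene, those under the filter included, were averaged (limma adjusted p from 0.0913 to 0.938). Kdm3b was then at 0.016.

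The sizes of the differences were small. At the probe sets used, none of the 54 genes had an absolute log2 fold change over 0.5, a size passed by 10.9% of all genes tested. The median absolute log2 fold change was 0.10 against 0.15. The median standard error was 0.092 in these genes and 0.10 over all genes tested. For 44 of the 54 genes (81.5%) the 95% interval lay within 0.5 of 0 on the log2 scale, against 61.9% of all genes tested. The median log2 fold change was -0.0031, beside 0.0036 over all genes tested, with 27 of the 54 genes below 0 (against 49.1% of all genes tested) and 27 above.

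**Figure D1:**
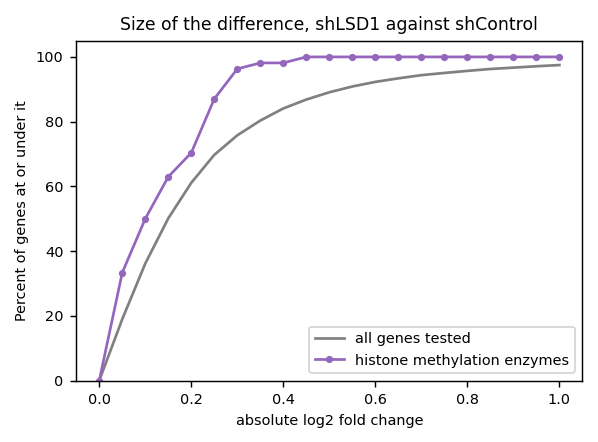
Percent of genes (vertical axis) whose absolute log2 fold change, shLSD1 minus shControl, is at or under the value on the horizontal axis, for the 54 histone methylation enzyme genes and for all genes tested. At 0.3 the enzymes have reached 96.3% and all genes 75.8%.

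**Figure D2:**
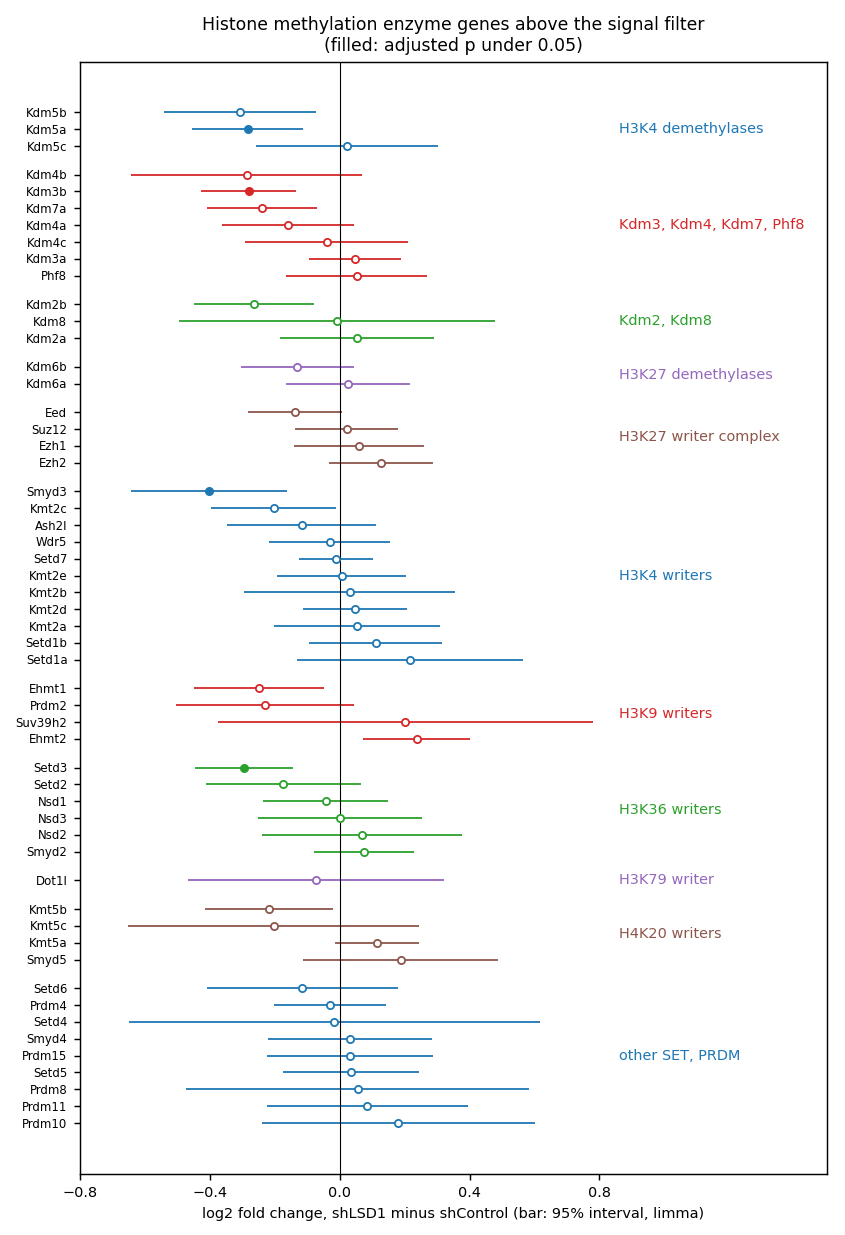
Log2 fold change of each of the 54 genes (horizontal axis, shLSD1 minus shControl) with its 95% limma interval, grouped by role. The filled points, Kdm5a, Kdm3b, Smyd3 and Setd3, are the genes past an adjusted p of 0.05 and lie left of 0.

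The knockdown itself was large on these arrays. The Kdm1a signal was 4603 and 4588 on the shControl arrays and 922 and 1034 on the shLSD1 arrays, or 21.3% of the control level, at -2.23 ± 0.070 (limma adjusted p = 2.91e-05). On the same 4 arrays each of the 54 genes, at the probe set used for it, kept between 75.7% (Smyd3) and 118% (Ehmt2) of its control level. Some other probe sets above the filter lay outside this range, such as those at 66.1% (Kdm5b) and 146% (Smyd4).

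At the probe sets used, 10 of the 15 tested demethylases of the JmjC type lay below their control level, against 49.1% of all genes tested. Of 17 matched, 15 were tested, 2 fell and 0 rose, where 7.09% of all genes tested fell and 8.75% rose. The median log2 fold change of these demethylases was -0.13. For the 39 tested genes that are no demethylases the median was 0.021, with 2 that fell and 0 that rose. Among the 10 demethylases below 0, other probe sets above the filter had the opposite sign for Kdm3b and Kdm6b. They had the same sign for Kdm2b and Kdm7a and both signs for Kdm5a and Kdm5b. Both shLSD1 arrays lay below both shControl arrays for 8 of the 15 demethylases and above them for 2, and over all genes tested 29.4% were separated downward and 30.7% upward. Among the other 39 genes, 8 were separated downward and 5 upward. The difference between demethylases and the other genes was not tested, since genes are not replicates.

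Kdm3b, which removes the lower methylation states of H3K9, had a signal of 1822 and 1871 on the shControl arrays and 1488 and 1551 on the shLSD1 arrays. Both shLSD1 arrays were below both shControl arrays, and the log2 fold change was -0.28 ± 0.063 (limma adjusted p = 0.0218), or 82.3% of control. A dimmer Kdm3b probe set went the other way, at 136 and 131 in shControl and 174 and 157 in shLSD1, with a log2 fold change of 0.31 ± 0.18 (limma adjusted p = 0.331) when every probe set was tested by itself. Its close relative Kdm3a measured 0.047 ± 0.060 (limma adjusted p = 0.649), with signals of 1830.1 and 1883 in shControl and 1884 and 1952 in shLSD1.

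Among the H3K4 demethylases Kdm5a fell, and Kdm5b and Kdm5c did not pass the test. Kdm5a, a partner of the retinoblastoma protein, had a signal of 1054 and 1082 on the shControl arrays and 889.7 and 865 on the shLSD1 arrays, which separates the groups, and it fell to 82.1% of control, at -0.28 ± 0.074 (limma adjusted p = 0.0380). Another bright Kdm5a probe set had overlapping groups, at 697 and 672 in shControl and 678 and 721 in shLSD1, and measured 0.031 ± 0.089 (limma adjusted p = 0.867). Kdm5b had signals of 539 and 507 in shControl and 417 and 429 in shLSD1, also separated, and measured -0.31 ± 0.10 (limma adjusted p = 0.0810), with -0.60 and 0.37 at its other probe sets above the filter. Kdm5c, the X-linked member, had signals of 1014 and 1242 in shControl and 1044 and 1243 in shLSD1, which overlap, and measured 0.022 ± 0.12 (limma adjusted p = 0.927) with a 95% interval from -0.26 to 0.30. All 7 of its probe sets above the filter lay between -0.090 and 0.059, and Kdm5d stayed below the filter.

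Kdm2b and Kdm7a were lower on both shLSD1 arrays without passing the adjusted threshold. Kdm2b, an H3K36 demethylase that also brings a variant polycomb complex to CpG islands, had signals of 1123 and 1148 on the shControl arrays and 990.4 and 902 on the shLSD1 arrays and measured -0.26 ± 0.079 (limma adjusted p = 0.0612). Kdm7a, which acts on H3K9 and H3K27, had signals of 1112 and 1081 on the shControl arrays and 942 and 917 on the shLSD1 arrays and measured -0.24 ± 0.072 (limma adjusted p = 0.0642). The other probe sets above the filter had the same sign for both genes, at -0.23 for Kdm2b and at -0.19 and -0.24 for Kdm7a. Kdm2a, the paralog of Kdm2b, measured 0.053 ± 0.10 (limma adjusted p = 0.767), and Phf8, the X-linked relative of Kdm7a, 0.052 ± 0.093 (limma adjusted p = 0.751).

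The Kdm4 genes, which encode demethylases of trimethylated H3K9 and H3K36, did not pass the test. Kdm4a measured -0.16, Kdm4b -0.29 and Kdm4c -0.040 (limma adjusted p = 0.262, 0.253 and 0.841). Both shLSD1 arrays were below both shControl arrays for Kdm4a and Kdm4b and overlapped for Kdm4c. Kdm4d, at signals from 4.53 to 34.1, was below the filter, and Kdm8, at -0.0075, had a wide 95% interval from -0.49 to 0.48.

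The H3K27 demethylases stayed close to their control level. Kdm6a had a signal of 812 and 866 on the shControl arrays and 831 and 878 on the shLSD1 arrays, with overlapping groups, and measured 0.026 ± 0.082 (limma adjusted p = 0.865). The 95% interval at this probe set spans 89.2 to 116% of control, and a dimmer Kdm6a probe set with overlapping groups gave 0.22. Kdm6b had a signal of 1615 and 1473 on the shControl arrays and 1452 and 1367 on the shLSD1 arrays, and its groups did not overlap, but it did not pass the test at -0.13 ± 0.075 (limma adjusted p = 0.282). A probe set of the type prone to cross-hybridisation gave 0.14 for Kdm6b.

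The writer of H3K27 methylation, polycomb repressive complex 2, showed no called change in Ezh1, Ezh2, Eed or Suz12; its histone-binding subunit Rbbp4, outside the gene set, is given with the related genes. Ezh2, its main catalytic subunit in dividing cells, had a signal of 1236 and 1181 on the shControl arrays and 1303 and 1339 on the shLSD1 arrays, higher on both shLSD1 arrays, and measured 0.13 ± 0.068 (limma adjusted p = 0.255). Ezh1, the catalytic subunit known to take over in differentiated cells, had a signal of 798 and 887 on the shControl arrays and 895 and 858 on the shLSD1 arrays, with overlapping groups, and measured 0.059 ± 0.086 (limma adjusted p = 0.690). At the probe sets used, the 95% intervals span 97.8 to 122% of control for Ezh2 and 90.6 to 119.8% for Ezh1. A dimmer Ezh1 probe set, at 265 and 198 in shControl and 274 and 288 in shLSD1, was higher on both shLSD1 arrays. It measured 0.29 ± 0.17 (limma adjusted p = 0.331) when every probe set was tested by itself. Eed, which binds trimethylated H3K27, had signals of 1649.7 and 1668 in shControl and 1525 and 1489.6 in shLSD1, lower on both shLSD1 arrays, and measured -0.14 ± 0.062 (limma adjusted p = 0.176). Suz12, the scaffold, had signals of 1540.2 and 1455 in shControl and 1560.4 and 1479 in shLSD1 and measured 0.021 ± 0.068 (limma adjusted p = 0.871), with overlap and with -0.0010 and -0.023 at its next brightest probe sets.

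Promoter windows of 300 bases (250 before to 50 after the gene start, RefSeq, GRCm38.p6) were found for 45 of the 61 genes, 40 of them among the 54 tested. They were rich in CpG, with a median of 25 CpG and 62.7% GC, against 21.5 CpG and 61.3% in the windows of all 8830 tested genes with one. The window of a gene with several is the one listed at the top. Motifs were searched on both strands: the E2F sites TTTGGCGC, TTTCCCGC and TTTGGCGG, the CHR element TTTGAA, the CCAAT box (letters CCAAT) and the myogenic E-box CAGCTG, with no overlap between matches in the windows shown. An E2F site was in 3 of the 40 windows (7.50%, against 4.24% over tested genes), a CHR element in 5 (12.5% against 11.4%), a CCAAT box in 18 (45.0% against 38.8%) and the E-box in 9 (22.5% against 14.9%). Over all 27025 promoters in the table the shares were 2.16%, 18.1%, 37.9% and 16.1%.

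The windows of 4 genes are shown: that of Setd3, the only gene that fell with a window, and those of Ezh2, Suz12 and Kmt5c, which hold the E2F letters found in cell cycle promoters; motif matches are in capitals.
Setd3 (GRCm38.p6, chr12:108179235-108179534, minus strand): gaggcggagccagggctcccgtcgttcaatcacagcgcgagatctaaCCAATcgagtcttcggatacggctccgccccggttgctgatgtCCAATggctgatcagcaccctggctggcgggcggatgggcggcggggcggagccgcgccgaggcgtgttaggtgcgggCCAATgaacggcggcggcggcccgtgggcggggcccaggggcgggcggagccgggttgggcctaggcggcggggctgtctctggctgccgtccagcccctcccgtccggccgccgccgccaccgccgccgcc
Ezh2 (GRCm38.p6, chr6:47594981-47595280, minus strand): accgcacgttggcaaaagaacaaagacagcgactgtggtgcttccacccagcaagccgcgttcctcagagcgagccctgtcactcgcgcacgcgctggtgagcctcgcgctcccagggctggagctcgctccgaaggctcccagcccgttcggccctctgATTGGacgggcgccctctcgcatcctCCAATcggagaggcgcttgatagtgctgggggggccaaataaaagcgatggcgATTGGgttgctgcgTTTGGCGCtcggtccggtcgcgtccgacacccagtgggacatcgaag
Suz12 (GRCm38.p6, chr11:79992856-79993155, plus strand): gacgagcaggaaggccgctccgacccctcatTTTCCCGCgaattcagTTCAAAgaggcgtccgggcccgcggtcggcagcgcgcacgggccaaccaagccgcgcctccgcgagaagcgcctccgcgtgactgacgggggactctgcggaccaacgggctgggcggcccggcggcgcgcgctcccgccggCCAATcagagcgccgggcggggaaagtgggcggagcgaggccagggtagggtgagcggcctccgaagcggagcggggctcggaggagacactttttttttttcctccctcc
Kmt5c (GRCm38.p6, chr7:4739877-4740176, plus strand): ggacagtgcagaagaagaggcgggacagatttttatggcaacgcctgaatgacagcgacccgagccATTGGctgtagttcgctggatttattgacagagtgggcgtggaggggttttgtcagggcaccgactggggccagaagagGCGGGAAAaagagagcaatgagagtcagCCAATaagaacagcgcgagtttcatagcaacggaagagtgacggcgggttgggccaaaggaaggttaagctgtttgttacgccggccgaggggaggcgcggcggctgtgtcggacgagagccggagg
Setd3 holds 3 CCAAT boxes and no E2F site. Ezh2 holds TTTGGCGC, Suz12 TTTCCCGC and Kmt5c the reverse complement GCGGGAAA, and the log2 fold changes of these genes were 0.13, 0.021 and -0.20, with no call among them. A match of letters describes the window and does not show that a factor binds there.

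Of the 11 tested genes for H3K4 methyltransferases and their shared subunits, 1 fell and 0 rose, with a median of 0.0057. The gene that fell was Smyd3, a SET and MYND domain enzyme that methylates histone and cytoplasmic substrates, with a signal of 650.5 and 640.0 on the shControl arrays and 457 and 522 on the shLSD1 arrays. Both shLSD1 arrays were below both shControl arrays, and it fell by 0.40 on the log2 scale with an SE of 0.10 (limma adjusted p = 0.0365), the lowest value among the 54 genes tested. Its other probe set was below the filter. The genes of the large mixed-lineage leukaemia type, Kmt2a to Kmt2e, and both Setd1 genes did not pass.

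Kmt2c was the gene of this type farthest below 0. Its signals were 1040.1 and 945 in shControl and 872 and 849 in shLSD1, which do not overlap, and it measured -0.20 ± 0.082 (limma adjusted p = 0.140), with 3 other probe sets between -0.14 and -0.0095. Its paralog Kmt2d had signals of 1403 and 1342 in shControl and 1377 and 1459 in shLSD1 and measured 0.048 ± 0.069 (limma adjusted p = 0.690), and Kmt2a, at 456 and 424 in shControl and 479 and 435 in shLSD1, measured 0.054 ± 0.11 (limma adjusted p = 0.780), both with overlapping groups. Setd1a measured 0.22 and Setd1b 0.11, Kmt2b 0.031 and Kmt2e 0.0057, and the shared subunits Ash2l and Wdr5 -0.12 and -0.030. Setd7, an H3K4 monomethyltransferase that binds MyoD, had the narrowest interval of the 54 genes. Its signals were 3749 and 3713 on the shControl arrays and 3687 and 3718 on the shLSD1 arrays, it measured -0.011 ± 0.049 (limma adjusted p = 0.907), and its 95% interval spans 91.7 to 107% of control.

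In the H3K9 group the partner enzymes Ehmt1 and Ehmt2, which form a heterodimer that makes mono- and dimethylated H3K9, lay on opposite sides of 0. The Ehmt2 signal was 1359 and 1377 on the shControl arrays and 1685 and 1542 on the shLSD1 arrays, higher on both shLSD1 arrays, at 0.24 ± 0.071 (limma adjusted p = 0.0610). The Ehmt1 signal was 948 and 1065 on the shControl arrays and 834 and 858 on the shLSD1 arrays, lower on both shLSD1 arrays, at -0.25 ± 0.086 (limma adjusted p = 0.0936). Neither passed the adjusted threshold. Their 95% intervals, which are not adjusted for the number of genes tested, were -0.45 to -0.048 for Ehmt1 and 0.072 to 0.40 for Ehmt2. The difference between these genes was not tested. A dimmer Ehmt2 probe set gave 0.38, and Ehmt1 has a single probe set. The 20 tested genes nearest to Ehmt2 on its chromosome, 10 on each side, had a median log2 fold change of 0.17, and this median was above 0.13 for 5% of all genes. For Kdm5b the same median was -0.19, where 5% of genes lie below -0.11. For Kdm4b, itself at -0.29, the neighbours' median was 0.13, past the upper mark and opposite in sign to the gene. No other gene of the 54 passed either mark, and the corresponding marks over the 54 genes were -0.084 and 0.084. The part of neighbouring genes in these values was not tested. For Setd3, Kdm3b, Smyd3 and Kdm5a the median of the neighbours lay between -0.048 and 0.0031.

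Prdm2, an H3K9 methyltransferase with a PR domain, had signals of 542 and 458 in shControl and 415 and 434 in shLSD1, lower on both shLSD1 arrays, and measured -0.23 ± 0.12 (limma adjusted p = 0.235). Suv39h2, which makes the trimethylated H3K9 of heterochromatin, had low signals of 108 and 82.7 in shControl and 104 and 113 in shLSD1 and measured 0.20 ± 0.25 (limma adjusted p = 0.633). Its 95% interval from -0.38 to 0.78 is wide, so the value is poorly determined at this signal. A Suv39h2 probe set of similar brightness, at 87.8 and 82.0 in shControl and 107 and 119 in shLSD1, was higher on both shLSD1 arrays. It measured 0.41 ± 0.23 (limma adjusted p = 0.306) when every probe set was tested by itself. Prdm16 was below the filter.

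Among the genes grouped as H3K36 methyltransferases, Setd3 fell. Setd3 was described early as an H3K36 enzyme and is better known as the histidine methyltransferase of actin. Its signal was 1734 and 1824 on the shControl arrays and 1477 and 1423 on the shLSD1 arrays, with both shLSD1 arrays lower, and it reached 81.5% of control, at -0.29 ± 0.065 (limma adjusted p = 0.0210). Its dimmer probe set gave -0.31, and its promoter is among the windows printed above. Setd2, which makes trimethylated H3K36 along transcribed genes, had signals of 661 and 647 in shControl and 538 and 624 in shLSD1, also lower on both shLSD1 arrays, and measured -0.17 ± 0.10 (limma adjusted p = 0.300). Nsd1, Nsd2, Nsd3 and Smyd2 measured -0.043, 0.069, 0.0013 and 0.074, all with overlapping groups at the probe sets used. Another Nsd3 probe set of similar brightness, at 715 and 687 in shControl and 626 and 580 in shLSD1, was lower on both shLSD1 arrays. It measured -0.22 ± 0.093 (limma adjusted p = 0.180) when every probe set was tested by itself. All other Nsd3 probe sets above the filter lay between -0.23 and 0.060.

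Kmt5a, the monomethyltransferase of H4K20 that is active in mitosis, had signals of 2186 and 2176 in shControl and 2384 and 2336 in shLSD1, higher on both shLSD1 arrays, and measured 0.11 ± 0.056 (limma adjusted p = 0.214). Kmt5b, which adds further methyl groups to H4K20, had signals of 818 and 821 in shControl and 678 and 732 in shLSD1, lower on both shLSD1 arrays, and measured -0.22 ± 0.084 (limma adjusted p = 0.125). Neither passed the adjusted threshold, and neither did Kmt5c (-0.20), whose window is printed above, or Smyd5 (0.19). Dot1l, the H3K79 methyltransferase, had signals of 336 and 250.1 in shControl and 266 and 286 in shLSD1, which overlap, and measured -0.073 ± 0.17 (limma adjusted p = 0.813). A dimmer Dot1l probe set, at 232 and 225 in shControl and 165 and 215 in shLSD1, was lower on both shLSD1 arrays. It measured -0.27 ± 0.18 (limma adjusted p = 0.378) when every probe set was tested by itself. The remaining 9 tested SET and PRDM genes, Setd4, Setd5, Setd6, Smyd4, Prdm4, Prdm8, Prdm10, Prdm11 and Prdm15, lay between -0.12 (Setd6) and 0.18 (Prdm10). Setd4 had the widest 95% interval of the 54 genes, from -0.65 to 0.62. Of these SET and PRDM genes, 0 fell and 0 rose by limma, and 0 had an unadjusted limma p under 0.05. Prdm1, Prdm6, Prdm9 and Prdm14 were below the filter, with Prdm1 and Prdm6 just outside it at a mean log2 signal of 5.65 and 5.64, and Suv39h2 and Prdm8 just inside at 6.66 and 6.69.

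**Figure D3:**
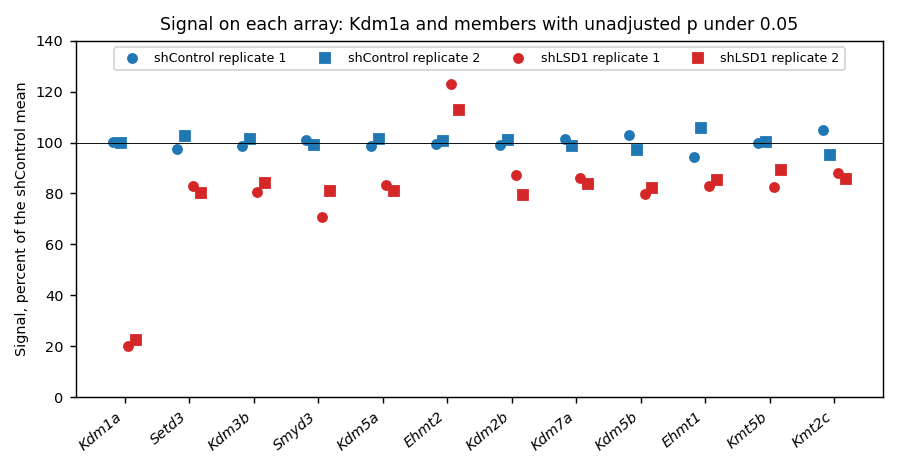
Signal on each array as a percent of the shControl mean (vertical axis) for Kdm1a and the 11 genes with an unadjusted limma p under 0.05. Kdm1a lies at 20.1 and 22.5% on the shLSD1 arrays, Ehmt2 at 123 and 113%, and the other 10 genes between 70.8 and 89.3%.

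The 61 genes had 165 probe sets, of which 112 lay above the filter. Tested each by itself among 19940 probe sets, 4 of these 112 fell and 1 rose, where 5.39% of all probe sets fell and 6.43% rose. The probe set that rose belongs to Smyd4, with signals of 244 and 264 in shControl and 373 and 367 in shLSD1 and a log2 fold change of 0.54 ± 0.13 (limma adjusted p = 0.0293). The brighter Smyd4 probe set, at 846 and 729 in shControl and 749 and 861 in shLSD1, measured 0.032. For 32 genes with another probe set above the filter, all signs were the same in 14 and at least 1 differed in 18. Opposite signs among probe sets of a gene were thus frequent at these sizes. Uncalled probe sets of opposite sign reached -0.43 for Setd5, -0.43 for Smyd5, 0.38 for Nsd1 and -0.37 for Nsd2.

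**Figure D4:**
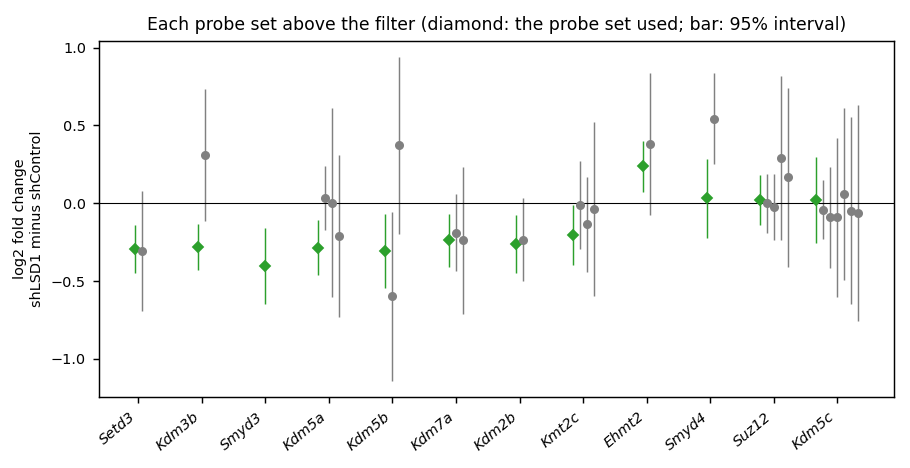
Log2 fold change (vertical axis, shLSD1 minus shControl) of each probe set above the filter for 12 of the genes, with 95% limma intervals. Diamonds mark the probe set used for the gene and circles the others. The other probe sets of Setd3, Kdm7a and Kdm2b lie on the same side of 0, the other one of Kdm3b lies on the opposite side, and those of Kdm5a and Kdm5b lie on both sides of 0.

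Among related genes outside the set, Smyd1 fell and Cbx6, L3mbtl3, Rbbp4 and Psip1 rose. Of 48 listed genes for other methyl-lysine enzymes, complex subunits and readers, 47 were tested, 4 rose (8.51%, against 8.75% of all genes tested) and 1 fell (2.13%, against 7.09%), with a median of 0.0021. Smyd1, the muscle-specific SET and MYND gene that supports sarcomere assembly, had signals of 1936 and 1752 on the shControl arrays and 956 and 1122 on the shLSD1 arrays. It fell by 0.83 on the log2 scale with an SE of 0.095 (limma adjusted p = 0.00151), with -0.76 and -0.76 at its next brightest probe sets. With all its probe sets averaged, Smyd1 was at -0.64 and was not called (limma adjusted p = 0.209). That average took in a probe set under the filter, at 5.39 and 7.54 in shControl and 1.14 and 3.62 in shLSD1. It also took in dim probe sets above the filter with overlapping groups, at 0.14 and 0.045. Cbx6, a chromodomain gene of polycomb complexes, had signals of 1742 and 1729 in shControl and 2473 and 2418 in shLSD1 and rose by 0.49 (SE 0.057; limma adjusted p = 0.00157), and its other probe set gave 0.53. L3mbtl3, a reader of methylated lysine that works with LSD1, rose by 0.57 (limma adjusted p = 0.00826; 0.0508 with no intensity trend and 0.0757 without shControl replicate 2), from 573 and 509 to 775 and 826.

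The other related genes that rose, Rbbp4 and Psip1, did so at only 1 of their probe sets. Rbbp4, a histone-binding subunit of polycomb repressive complex 2 and other complexes, measured 0.50 ± 0.066 (limma adjusted p = 0.00276), while a brighter probe set of the cross-hybridising type gave 0.0091 and another 0.026. Its call was lost without the intensity trend (limma adjusted p = 0.0575) and with probe sets averaged (0.326), as was that of Psip1 (0.0878 and 0.567). Psip1, a reader of H3K36 methylation, measured 0.43 ± 0.085 (limma adjusted p = 0.0135), lost without shControl replicate 1 (limma adjusted p = 0.109), with 0.14 at another probe set. Phf2, a relative of Phf8, measured -0.28 ± 0.083 (limma adjusted p = 0.0577) and did not pass.

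Markers of cell state moved with the groups. Of 12 tested proliferation markers, 8 rose and 0 fell, and their summed signal was 27273 and 27302 in shControl and 32125 and 32419.8 in shLSD1. Mcm2, Mcm5, Rrm2 and Aurkb were tested and not called, at log2 fold changes of 0.023, 0.067, 0.057 and 0.67. Of 12 muscle markers, 1 rose and 7 fell, with summed signals of 162263 and 159072 in shControl and 117998 and 130320.0 in shLSD1. Over all genes tested 8.75% rose and 7.09% fell. The muscle marker that rose was Myf5, at 1.28 (limma adjusted p = 7.96e-05). Cdh15 was also higher on both shLSD1 arrays, at 0.18, and was not called. The part of the proliferation and muscle markers in the values of the enzyme genes was not tested. Bulk signals do not tell fewer cells of a state from less RNA per cell. The markers Adipoq, Ptprc, Pecam1 and Epcam had signals at or under 19.1, under the filter of 65.6. Others were brighter: the endothelial marker Tek had signals of 27.8 and 26.4 in shControl and 66.9 and 109 in shLSD1 with a mean under the filter, so it was not tested, and the macrophage marker Csf1r, at 112 and 125 in shControl and 128 and 84.4 in shLSD1, and the epithelial marker Krt8, at 61.8 and 83.5 in shControl and 92.8 and 116 in shLSD1, were tested and not called. Summed signals in shControl and shLSD1 were 34.2 to 100.1 and 82.1 to 86.2 for adipocyte, 136 to 152 and 153 to 197 for endothelial, 206 to 273 and 202 to 211 for macrophage, 193 to 214 and 301 to 312 for epithelial and 1078 to 1171 and 1382 to 1456 for neuronal markers. The neuronal sums were mostly Tubb3, at 1035 and 999 in shControl and 1291 and 1324 in shLSD1. The other neuronal markers were under the filter, with Snap25 and Gad1 lower on average in shLSD1 and Syt1 and Rbfox3 higher. Among the epithelial markers Krt8 and Cdh1 were higher on both shLSD1 arrays. Epcam, Krt18 and Krt5, under the filter, were lower on average in shLSD1. None of the adipocyte and endothelial markers passed the filter on their mean. Cdh1 and Tubb3 rose among 2 epithelial and 1 neuronal marker tested, by 1.38 (limma adjusted p = 0.00998) and 0.36 (limma adjusted p = 0.0123). Neither call held in every fit with a single control array, where Cdh1 measured 1.49 and 1.28 and Tubb3 0.39 and 0.34. Cdh1 had signals of 60.1 and 51.9 in shControl, under the filter, and 153 and 139 in shLSD1. It was tested only through its shLSD1 signals, so its call is not independent of the direction of the difference.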

How the data were processed

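The deposited values are MAS5 signal intensities on a linear scale, 1 per probe set and array, which the authors made with Affymetrix Expression Console, per the submitters' processing notes; no version is named there. The 2% trimmed mean of the deposited signals is 500.0 on every array, so changes are relative to a common array total, and log2 values of dim probe sets scatter widely. Signals under 1 were set to 1 before log2. Probe sets with exactly 1 gene symbol in the platform annotation were kept, and each gene took the brightest, with _x_at types avoided where another existed. The groups were compared over all 10874 genes above the median mean log2 signal with limma 3.58.1 (lmFit, eBayes with an intensity trend) in R 4.3.3, with two-sided p-values adjusted by Benjamini-Hochberg. Genes named in full are Kdm1a, those with an unadjusted p under 0.05, a fixed set of enzymes, and the 6 related genes with the smallest adjusted p; Kdm3a, Kdm2a, Phf8 and other members are given in brief, and Smyd4, Cdh1, Tubb3, Tek, Csf1r and Krt8 were named after their values were seen. The gene set, although defined by name, and the lists were chosen with earlier results of these data known. Precision is limited by 2 arrays per group.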

Additional observations from a re-analysis of the deposited data

How the results depend on the processing

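Leaving out each array in turn gave 347 to 1151 genes that rose and 228 to 1040 that fell, with 0 to 5 enzyme genes that fell and 0 to 1 that rose (Ehmt2). Without the intensity trend the counts were 377, 262, 0 and 0, and with all probe sets of a gene averaged 488, 403, 0 and 0, with a median log2 fold change of the enzyme genes of -0.064. With no filter 2 enzyme genes fell, Kdm3b and Setd3. At an adjusted p of 0.1, 1434 genes rose and 1159 fell (1 and 8 enzyme genes), and at 0.01, 416 and 348 (0 and 0). The same 4 enzyme genes fell under quantile normalization, median centring, a pseudocount of 32, a stricter filter, robust moderation and with _x_at probe sets allowed. With the replicate number as a block 1236 genes rose and 985 fell, and among the enzyme genes 1 rose (Ehmt2) and 5 fell (Kdm2b in addition). The labels do not say that replicate numbers pair the arrays, so the numbers were not taken to do so. Deviations of the replicate 1 arrays from their group means had a correlation of 0.0029 over genes. With 2 arrays per group the replicate 2 arrays mirror these deviations, so this single comparison cannot decide on pairing.

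For single genes, 34 of the values under an alternative had the opposite sign, 43 lost the call and 14 gained it, and 512 kept sign and call. Leaving out an array turned the sign of genes near 0, with ranges of -0.017 to 0.14 (Ezh1), -0.020 to 0.072 (Kdm6a), -0.29 to 0.14 (Dot1l), -0.12 to 0.17 (Kdm5c), -0.020 to 0.062 (Suz12) and -0.015 to 0.12 (Kmt2a). Single values without 1 array were -0.018 for Suz12 (shLSD1 replicate 1), -0.013 for Kdm6a and -0.10 for Kdm5c (shLSD1 replicate 2). Suz12 was at -0.00056 under median centring. With probe sets averaged Kdm3b was at 0.016, Suz12 at -0.24, Kdm6b at 0.20, Kdm5c at -0.15 and Kmt5a at -0.94. Other single probe sets of opposite sign to the one used gave, among the genes with full values, 0.31 (Kdm3b), 0.031 and 0.0037 (Kdm5a), 0.37 (Kdm5b), 0.10 (Kmt5b), -0.0010 and -0.023 (Suz12), 0.14 (Kdm6b), -0.040, -0.090, -0.090, -0.049 and -0.063 (Kdm5c), -0.068 (Kmt5a), 0.16 (Prdm2), 0.14 and 0.045 (Smyd1), -0.15 (Rbbp4) and -0.10 (Psip1). Beyond the probe sets that entered an average, the cause of these changes was not tested. Genes with signals near the filter have the widest intervals.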
